A study of Drosophila melanogaster with 62 samples.

Results

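Among 17753 annotated genes counted in Drosophila melanogaster embryos, 46 zygotic genes stood higher in one set of stage 5 controls than in the other, and these genes are described here across embryos depleted of histone acetyltransferases or deacetylases. They were selected on measured values in control libraries: a mean under 1 CPM (the reads of a gene, scaled to a library of 1e6 counted reads) in both sets of stage 2 controls, a mean of at least 5 CPM in the main stage 5 controls, and a ratio of at least 1.5 between the main and the batch 1 stage 5 controls after adding 0.5 CPM to each mean. The first 2 conditions left 494 zygotic genes, of which 46 passed the ratio, 298 were at least 1.5 times higher in the batch 1 controls and 150 lay between. Just inside the limit were Rph (ratio 1.5), GluRIIA (1.60) and Notum (1.61), and just outside were CG6885 (1.49), sisRNA:CR46360 (1.48) and CG30431 (1.44). The control levels that made this choice are given below as a description and support nothing.

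In the early Drosophila embryo, nuclei divide rapidly without cell membranes and live on RNA loaded by the mother, until the zygotic genome is switched on and the maternal RNA is cleared. The first genes to be transcribed are often short and without introns. They include genes that build the actin and membrane furrows of cellularization, signals that pattern the dorsal side, and X-linked genes that count the X chromosomes in sex determination. Nejire (the fly CBP/p300) and Gcn5 are lysine acetyltransferases that acetylate histones, Enok is another acetyltransferase, and HDAC1, HDAC3 and HDAC6 are deacetylases.

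Total RNA was sequenced from 20 hand-sorted embryos per library at stage 2, in the first nuclear divisions, or at stage 5, when the blastoderm forms cells. The main set held controls and NejireKD, HDAC1KD and HDAC3KD embryos (KD, knockdown) in 3 libraries per stage, and Gcn5KD embryos in 3 libraries at stage 2 and 2 at stage 5. The batch 1 set held its own controls (3 libraries at stage 2, 4 at stage 5) and EnokKD and HDAC6KD embryos in 2 libraries per stage. The library names call 2 of these stage 5 controls (replicates 1 and 4) Ctrl-KD, as in the main set, and 2 (replicates 2 and 3) CtrlAc-KD, from a cross of the same name, a difference that the labels do not explain. Of the batch 1 stage 2 controls, replicates 1 and 2 are named Ctrl-KD and replicate 3 CtrlAc-KD. With the Ctrl-KD libraries of batch 1 alone, an alternative added after the data were seen, the rule would choose 44 genes, 41 of them among the 46. At stage 5, NejireKD embryos with a wild-type or a catalytically dead Nejire rescue and Gcn5KD embryos with a wild-type or a catalytically dead Gcn5 rescue gave 3 libraries each, with no unrescued library in those sets. Nuclear RNA from 300 stage 5 embryos per library was sequenced from 3 controls, whose library names call them wild type, and 3 NejireKD samples. The library names give each knockdown its own cross, so the depleted protein and the fly line cannot be told apart, and the labels give neither the driver of the knockdown nor the age of the embryos within a stage.

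Depth was 2.45 to 40.4 M counts per library (M, 1e6) in the 56 total RNA libraries and 14.8 to 20.7 M in the 6 nuclear libraries. At stage 5 the targeted gene was lower in every knockdown library than in every control library of its set: nej stood at 179 to 334 CPM against 678 to 1524 CPM, Gcn5 at 30.6 to 38.4 against 211 to 252, HDAC1 at 146 to 170 against 548 to 675, enok at 88.9 to 97.9 against 390 to 504, and HDAC6 at 24.9 to 33.3 against 67.3 to 93.2. HDAC3 had 0 counts over all total RNA libraries, controls included, so its depletion could not be checked. HDAC6KD replicate 2 at stage 5 has 1 label field that names stage 2, and its 1888 CPM summed over the 46 genes is a stage 5 level.

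The name of the set, genes that peak early, was checked against maternal RNA. The maternal RNA bcd, which encodes the anterior determinant Bicoid, was at 60.2, 65.5 and 118 CPM in the main stage 5 controls and at 3.24 to 5.77 CPM in the batch 1 stage 5 controls. The 9 maternal genes matched of 10 listed, 8 of them detected in each of these libraries and BicC at 0 counts, summed to 2081 to 3619 CPM in the main controls and 697 to 868 CPM in the batch 1 controls. Of the 11 genes listed for older embryos, the neuronal gene elav made up nearly all of the summed CPM, with means of 90.6 CPM in the main and 228 CPM in the batch 1 controls, while the next, Mlc2 and nSyb, had means of 0.349 and 0.651 CPM in the main and 1.53 and 0.814 CPM in the batch 1 controls. The list therefore rests on 1 gene here. The main controls held more of the maternal RNAs, but no library gives a time course, so the order in time was not tested.

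In the main stage 5 controls the 46 genes summed to 6367 ± 717 CPM (SD, n = 3), and in the batch 1 stage 5 controls to 2602 ± 890 CPM (SD, n = 4). At stage 2 no library exceeded 27.3 CPM in sum, which was NejireKD replicate 1, and all other stage 2 knockdown libraries lay at or under 7.62 CPM. These stage 2 knockdown libraries took no part in the selection. At that stage 45 of the 46 genes had a mean under 1 CPM in Gcn5KD embryos and 46 of 46 in each other knockdown, the exception being Rph (1.89 CPM).

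**Figure D1:**
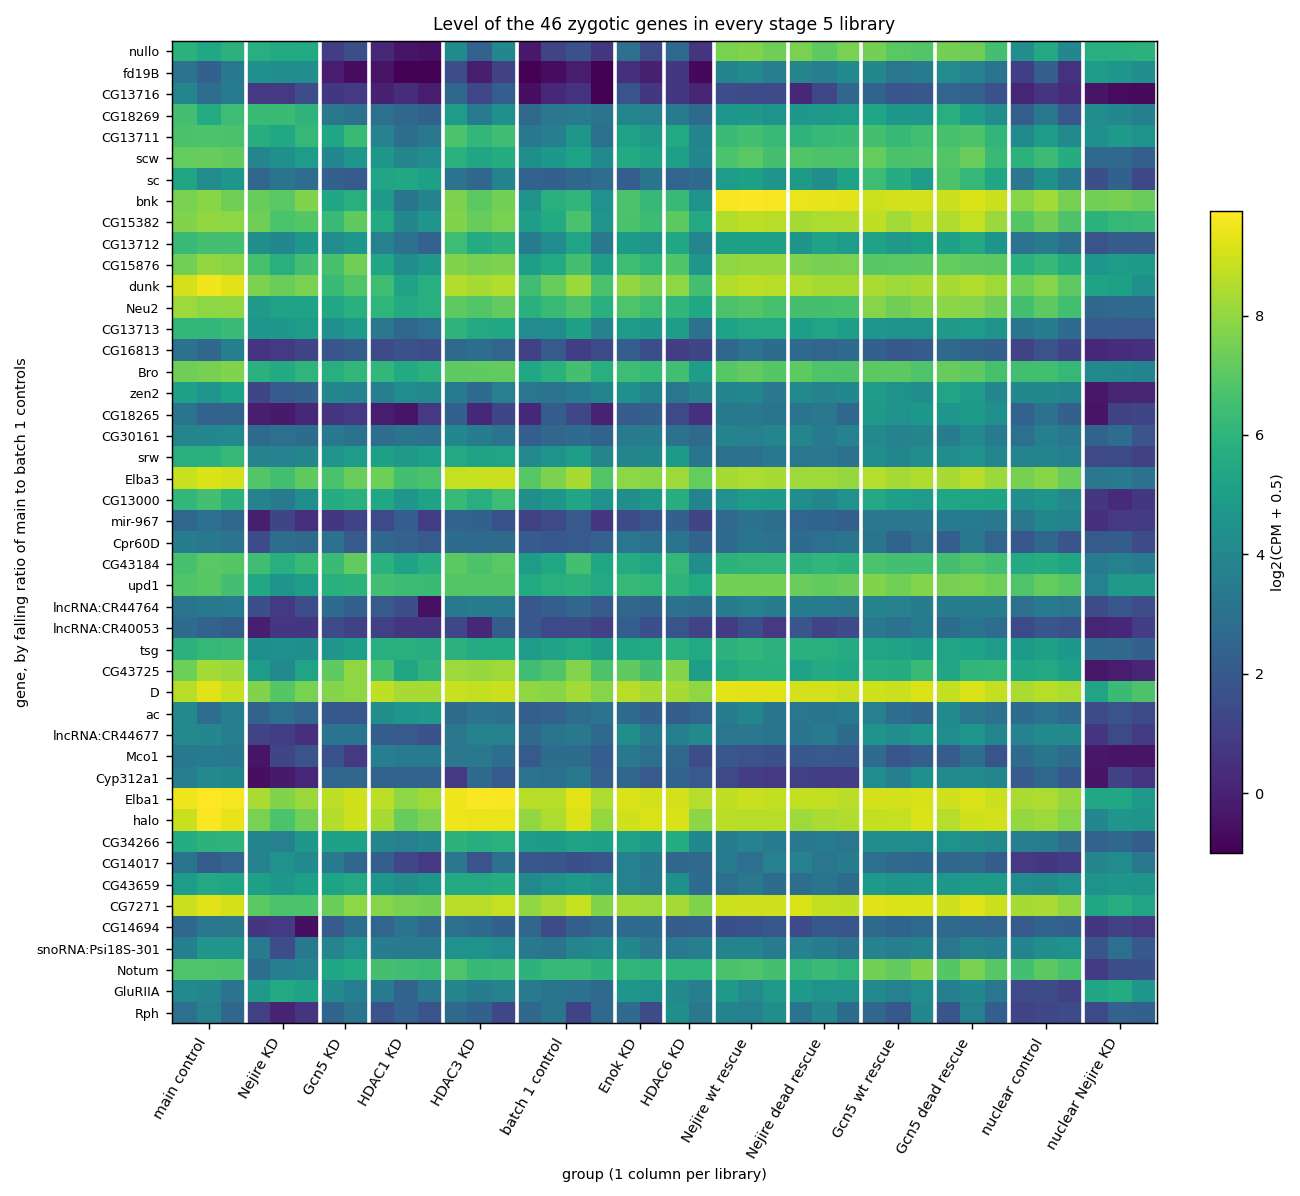
Level of each of the 46 genes, as log2(CPM + 0.5), in every stage 5 library (columns, grouped and separated by white lines; rows by falling ratio of the main to the batch 1 controls). The rows of nullo and fd19B are bright in the main controls, NejireKD and rescue libraries and dark in the Gcn5KD, HDAC1KD and batch 1 libraries.

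The highest ratios belonged to nullo (27.2), fd19B (12.4), CG13716 (11.5), CG18269 (8.46), CG13711 (7.23), scw (5.74), sc (4.81), bnk (4.71), CG15382 (4.62) and CG13712 (4.50). The gene nullo, which stabilises the actin at the base of cellularization furrows, stood at 58, 43.6 and 59.1 CPM in the main controls and at 0.341, 1.84, 2.65 and 1.12 CPM in the batch 1 controls. The most abundant of the 46 in the main controls was Elba1, a subunit of a chromatin boundary complex of the early embryo, at 718, 860 and 788 CPM. It was followed by halo (480, 816 and 662 CPM), which steers lipid droplets along microtubules, and by dunk, a regulator of myosin in cellularization (532, 729 and 621 CPM). Elba3, which works in the same complex as Elba1, stood at 459, 566 and 512 CPM.

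In the Ensembl annotation of the dm6 genome, 41 of the 46 genes are protein-coding, with 3 long non-coding RNAs, the microRNA gene mir-967 and the small nucleolar RNA gene snoRNA:Psi18S-301 making up the rest. Their gene structure, which the selection did not use, was compact. The median span of the 41 coding genes was 993 bp, against 2489 bp for the 127 coding genes among the 150 zygotic genes in between, 9094 bp for the 270 coding genes among those higher in batch 1, and 2869 bp for all coding genes of at least 1 CPM at stage 5. A single exon was annotated for 25 of the 41 (61.0%), against 27.6%, 11.1% and 9.05% in those 3 sets. Chromosome arm 3L carried 17 of the 46 (37.0%, against 19.6% of all genes at that level), 2L carried 13 and the X chromosome 8. These shares are descriptions without a test.

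Several of the genes are neighbours. A group of 6, CG13716, CG34266, CG15876, CG13713, CG13712 and CG13711, lie within 124 kb at 3L:4634436-4758708, with gaps under 50 kb. CG18269, CG14017 and GluRIIA lie side by side on 1 strand in 7.16 kb at 2L:5551838-5558994, Elba1 and Elba3 in 5.91 kb at 2L:4683052-4688956, and ac and sc in 27.5 kb at X:370031-397497. The exons of CG14017 and GluRIIA overlap, which covers 5.60% of the exon length of CG14017, and 29.6% of the exon length of CG15382 overlaps aop on the other strand. Whether the counting used strand is not given in the sources used here, so reads in these overlaps cannot be assigned with certainty.

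In total RNA at stage 5, the share of the 46 genes in the summed CPM of the 494 zygotic genes was larger in every library with bcd above 60 CPM than in every library with bcd under 10 CPM. These limits were set after the values were seen, and libraries between them, as in HDAC3KD, are left out. Controls that chose the genes stand on both sides, so the split is a description. In the main controls the share was 12.8 to 14.2% and in the batch 1 controls 2.82 to 5.91%, the contrast that chose the genes. The share was 15.8 to 18.3% in NejireKD libraries (bcd 142 to 177 CPM), 7.76 to 9.27% in HDAC3KD (bcd 10.6 to 28.9), 4.13 to 6.15% in Gcn5KD (bcd 6.89 to 9.15) and 2.90 to 4.36% in HDAC1KD (bcd 4.10 to 6.12). A high share in NejireKD is not a high level: the 46 genes summed to 2090 CPM on average, against 6367 CPM in the main controls. The genes in between and those higher in batch 1 summed to 3631 and 6370 CPM there, against 14934 and 25814 CPM. Nuclear RNA had shares of 3.05 to 4.56% in controls at 40.1 to 95.9 CPM of bcd and 7.47 to 15.3% in NejireKD at 292 to 379 CPM. The part that the amount of maternal RNA, and with it the age of the embryos, plays in the differences below was not tested. In these bulk samples, fewer expressing cells and less RNA per cell cannot be told apart.

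**Figure D2:**
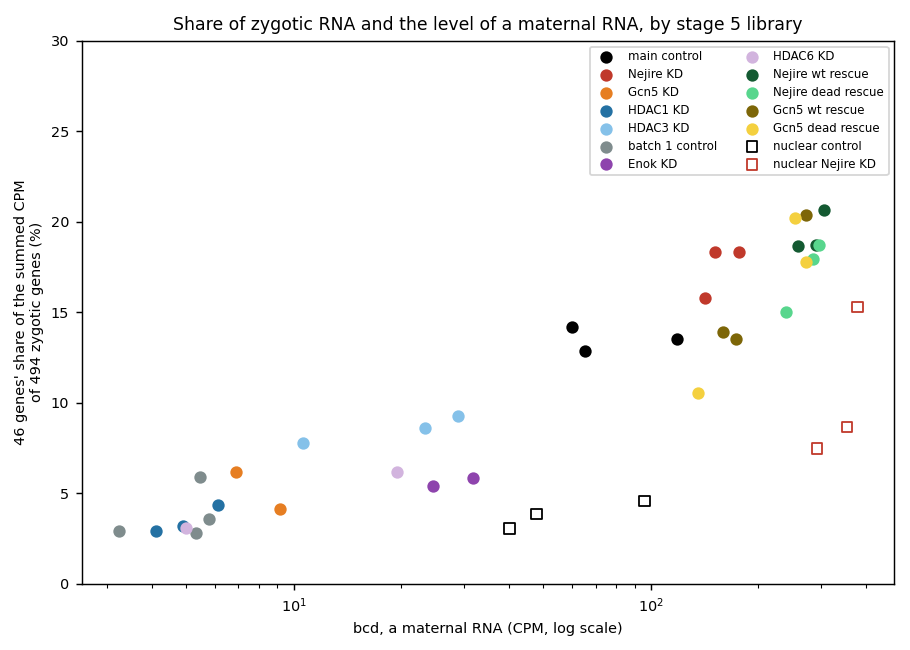
Share of the 46 genes in the summed CPM of 494 zygotic genes (%) against the CPM of the maternal RNA bcd (log scale), 1 point per stage 5 library, squares for nuclear RNA. Total RNA libraries with bcd under 10 CPM lie at 2.82 to 6.15%, and those with bcd above 60 CPM lie at 10.5 to 20.6%. Both ranges include controls that chose the genes, and the limits on bcd were set after the values were seen.

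Most of the set was lower in NejireKD than in the main controls, and some of the genes with the highest control ratios were not. Of the 46 genes, 39 were lower and 3 higher in NejireKD than in the main controls (edgeR's quasi-likelihood test, Benjamini-Hochberg adjusted over 8236 genes at 0.05), where 21.9% of all genes were lower and 16.1% higher. The median log2 fold change was -1.95, against 0.01 over all genes. The main controls are part of the selection, so these counts are a description. The fall was not particular to the set by its counts: 124 of the 150 zygotic genes in between and 265 of the 298 genes higher in batch 1 were lower too, with medians of -2.11 and -2.20.

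Cyp312a1, a cytochrome P450, fell from 11.8, 16 and 14.8 CPM in the main controls to 0.172, 0.369 and 0.684 CPM in NejireKD (log2 fold change -5.27, SE 0.46). The NejireKD values are 2, 2 and 4 reads, so the size of this fall is set in part by the floor. Notum, a secreted enzyme that inactivates Wnt ligands, fell from 109, 111 and 103 CPM to 6.79, 11.8 and 13.3 CPM (log2 fold change -3.42, SE 0.21). In both genes the 2 groups were far apart. The homeobox gene zen2, a neighbour and relative of zen, fell from 35.1, 23.6 and 37.1 CPM to 1.89, 3.69 and 4.45 CPM (log2 fold change -3.35, SE 0.31).

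Against these falls, nullo stood at 52.7, 46.5 and 46.4 CPM in NejireKD, within the range of the main controls (log2 fold change -0.15, SE 0.25). CG18269 stood at 79.8, 79.3 and 63.3 CPM against 93.5, 48.3 and 83.4 CPM in the main controls (log2 fold change -0.03, SE 0.25), and the groups overlapped. The same held for bnk, which restrains the contraction of the actin network in cellularization, with 153, 128 and 207 CPM against 191, 230 and 169 CPM (log2 fold change -0.31, SE 0.25). A further 3 genes were higher in NejireKD.

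The forkhead gene fd19B rose from 8.02, 4.42 and 9.58 CPM to 20.4, 20.1 and 19 CPM (log2 fold change 1.48, SE 0.33). CG14017 rose from 8.19, 4.06 and 5.19 CPM to 13.2, 21.4 and 16.6 CPM (log2 fold change 1.51, SE 0.40). Its neighbour GluRIIA, which encodes a glutamate receptor subunit of the neuromuscular junction, rose from 17.2, 14.2 and 7.98 CPM to 27.3, 45.8 and 36.3 CPM (log2 fold change 1.36, SE 0.27). All 3 groups of NejireKD values lay above those of the main controls. CG18269, CG14017 and GluRIIA are the 3 adjoining genes on 2L.

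**Figure D3:**
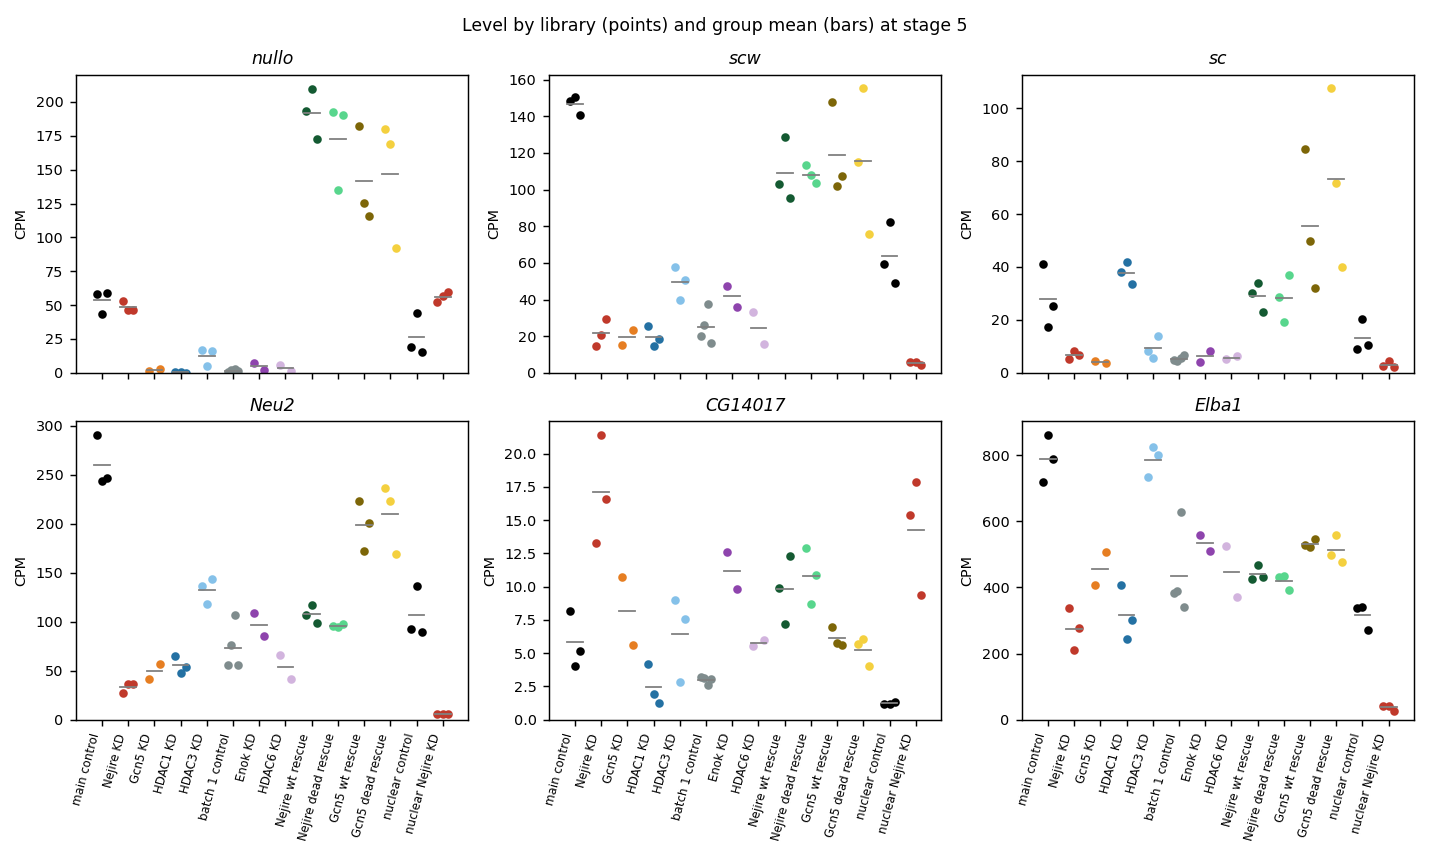
CPM of nullo, scw, sc, Neu2, CG14017 and Elba1 in each stage 5 library (points, linear axes from 0) with group means (grey bars). The NejireKD points lie with the main controls for nullo, above them for CG14017 and below them for scw, sc, Neu2 and Elba1, and sc is near the level of the main controls in HDAC1KD.

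The other 3 knockdowns of the main set differed in which of the genes were low. In Gcn5KD, 35 of 46 were lower than in the main controls and 0 higher, where 24.3% of all genes were lower and 27.4% higher. In HDAC1KD, 42 were lower and 1 higher, where 28.5% and 27.5% of all genes were, and in HDAC3KD 17 were lower and 0 higher, where 20.4% and 14.4% were. The medians were -1.29, -1.68 and -0.45 on the log2 scale. These 3 comparisons share their controls with each other and with the NejireKD comparison, and those controls are part of the selection.

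The batch 1 controls gave other counts. Against them, 23 of the 46 were lower and 10 higher in NejireKD, where 37.3% of all genes were lower and 35.1% higher. In Gcn5KD 6 were lower and 7 higher, where 21.4% and 21.8% of all genes were. In HDAC1KD 14 were lower and 4 higher, where 19.8% and 21.1% were, and in HDAC3KD 1 was lower and 33 higher, where 20.1% and 21.2% were. The median log2 fold change of the 46 in NejireKD was -0.64 on this scale. The counts of all 4 knockdowns therefore turn on which controls are used, and since the genes were chosen for a gap between these controls, that shift follows in part from the choice. Gcn5KD replicate 1 also carried 125 CPM of summed eggshell genes made by follicle cells (8 of 12 detected), against 7.03 CPM in replicate 2. Without replicate 1 a single Gcn5KD library is left, so calls from that fit are not given. The median log2 fold change of the 46 against the main controls was then -1.25, and -1.29 with both libraries.

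A stricter description asks which genes lay outside all 7 stage 5 control libraries of both sets. In NejireKD, 19 of 46 lay below and 3 above all 7, where 22.1% and 20.8% of all genes did. The 3 above were fd19B, CG14017 and GluRIIA, and those below included Elba1, halo, CG7271, tsg, upd1, zen2, Neu2, Notum and D. In Gcn5KD, 4 lay below (sc, ac, Mco1 and Notum) and 0 above, where 10.8% and 25.2% of all genes did. In HDAC1KD, 5 lay below and 1 above, where 9.19% and 22.8% of all genes did, and in HDAC3KD 0 lay below and 0 above, where 6.26% and 8.65% did. Since the 46 genes were chosen for a gap between the control sets, their 7 controls span a wider range than those of other genes. In NejireKD, 125 of the 150 zygotic genes in between and 267 of the 298 genes higher in batch 1 lay below all 7, a larger share than the 19 of 46.

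Direct comparisons between knockdowns compare no library of the selection, although the main controls took part in the filter on low counts and in the estimate of the spread. NejireKD against Gcn5KD gave 20 lower and 7 higher of 46 by edgeR, where 35.8% and 28.2% of all genes were. NejireKD against HDAC1KD gave 17 lower and 15 higher (37.0% and 32.6%), close to the 35.6% and 32.9% of all genes. NejireKD against HDAC3KD gave 36 lower and 5 higher, where 29.4% and 29.1% were. HDAC1KD against HDAC3KD gave 33 lower and 2 higher, where 20.1% and 21% of all genes were. The medians of the 46 were -0.43, -0.12, -1.43 and -1.35, against -0.14, -0.04, -0.03 and 0.01 over all genes. Fitted with the compared groups alone, 44, 43, 43 and 42 of the 46 passed the filter on low counts, and the lower and higher counts were 16 and 8, 17 and 14, 34 and 5, and 30 and 2. The shares of all genes lower and higher in these fits were 32.3% and 30.8%, 37.9% and 36.4%, 32% and 32.2%, and 26.2% and 27.4%. The libraries also differed in bcd in these comparisons, as given above.

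A group of 5 genes was higher in NejireKD than in each of the 3 other knockdowns: nullo, fd19B, CG18269, CG14017 and GluRIIA. That is 10.9% of the set, where 21.3% of all genes were higher in each, and the 3 comparisons share the NejireKD libraries. Of the other zygotic genes, 0 of the 150 in between and 0 of the 298 higher in batch 1 were. In Gcn5KD, nullo was at 1.44 and 2.48 CPM, in HDAC1KD at 0.645, 0.273 and 0.204 CPM and in HDAC3KD at 16.7, 4.77 and 15.9 CPM, all below the NejireKD libraries. Its log2 fold change in NejireKD was 4.73 (SE 0.41) over Gcn5KD, 6.77 (SE 0.44) over HDAC1KD and 1.96 (SE 0.28) over HDAC3KD, with edgeR adjusted p of 2.0e-08, 3.3e-10 and 9.3e-06. For fd19B the NejireKD libraries were also above every library of the other 3 knockdowns, where it reached at most 2.45 CPM. Its log2 fold change was 6.22 (SE 0.58) over Gcn5KD, 7.09 (SE 0.55) over HDAC1KD and 3.76 (SE 0.39) over HDAC3KD, with edgeR adjusted p of 4.9e-08, 2.8e-09 and 2.5e-07. Some of these ratios rest on few reads. fd19B had 3 and 1 reads in Gcn5KD and 3, 0 and 0 in HDAC1KD. In HDAC1KD nullo had 8, 1 and 1 reads. The size of the ratios over these groups is therefore set in part by the floor.

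CG18269 stood at 9.41 and 7.72 CPM in Gcn5KD and at 7.01, 5.74 and 4.50 CPM in HDAC1KD, and was higher in NejireKD by log2 fold changes of 3.21 (SE 0.34) and 3.76 (SE 0.31), with edgeR adjusted p of 2.7e-07 and 6.5e-09. GluRIIA was higher in NejireKD than in HDAC1KD by 2.23 (SE 0.28) on the log2 scale, and CG14017 by 2.71 (SE 0.42), with edgeR adjusted p of 1.2e-06 and 1.8e-05. In both genes no HDAC1KD library reached the lowest NejireKD library.

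In NejireKD, 13 genes were lower than in each of the 3 other knockdowns: zen2, tsg, srw, upd1, Neu2, Notum, Rph, Cyp312a1, CG7271, CG13000, CG14694, CG43725 and lncRNA:CR44677. That is 28.3% of the set, where 23.6% of all genes were lower in each, as were 109 of the 150 zygotic genes in between and 270 of the 298 higher in batch 1. With each pair of groups fitted alone, 10 of the 13 were still called, tsg and Neu2 missed the call in at least 1 comparison, and Cyp312a1 did not pass the filter against HDAC3KD. Those 10 were 23.8% of the 42 genes of the set tested in every fit, where 23.6% of all genes were lower in each. Both counts are thus near the share over all genes. Notum stood at 39.2 and 48.2 CPM in Gcn5KD, at 94.9, 88.3 and 82.2 CPM in HDAC1KD and at 111, 73.3 and 78.6 CPM in HDAC3KD, above the highest NejireKD library. Its log2 fold change in NejireKD was -1.99 (SE 0.22) against Gcn5KD, -2.98 (SE 0.21) against HDAC1KD and -3.06 (SE 0.21) against HDAC3KD, with edgeR adjusted p of 4.6e-07, 6.9e-10 and 1.2e-09. For Cyp312a1 the log2 fold changes were -3.72 (SE 0.52) against Gcn5KD and -3.57 (SE 0.51) against HDAC1KD, with edgeR adjusted p of 6.9e-06 and 5.5e-06. Against HDAC3KD the log2 fold change was -3.35 (SE 0.52). No p is given there, since the gene passed the filter only through the other groups of the fit. These values of Cyp312a1 rest on 2, 2 and 4 reads in NejireKD. CG43725, at 30.3, 16.6 and 38.5 CPM in NejireKD and 286, 269 and 297 CPM in HDAC3KD, had a log2 fold change of -3.30 there (SE 0.32, edgeR adjusted p = 1.2e-07).

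**Figure D4:**
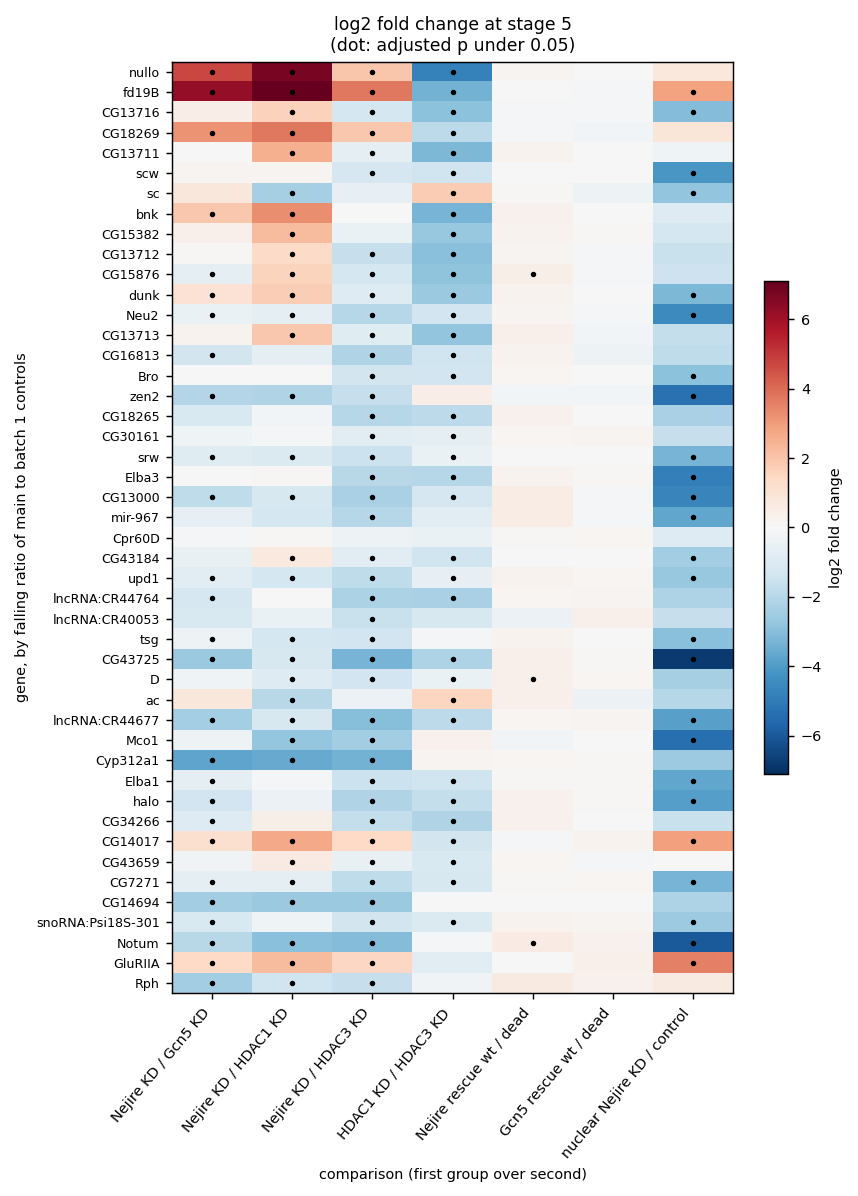
log2 fold change of each of the 46 genes in 7 comparisons between groups outside the selection, of which those between knockdowns were fitted together with the main controls (colour, red for higher in the first group), with a dot where the edgeR adjusted p is under 0.05. Red cells with dots for nullo, fd19B, CG18269, CG14017 and GluRIIA stand in all 3 NejireKD columns, and the 2 rescue columns are nearly white, with 3 dots.

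By role, the 3 genes on the list of cellularization genes split in NejireKD. The gene halo was at 189, 103 and 177 CPM, below HDAC3KD at 706, 689 and 691 CPM (log2 fold change -2.13, SE 0.26, edgeR adjusted p = 1.4e-06) and below Gcn5KD at 360 and 504 CPM (log2 fold change -1.36, SE 0.27, edgeR adjusted p = 3.0e-04). In contrast, bnk differed from HDAC3KD by -0.03 (95% interval -0.53 to 0.46, edgeR adjusted p = 0.92) and was higher than in Gcn5KD by 1.90 on the log2 scale (SE 0.31, edgeR adjusted p = 3.5e-05). The other 6 tested genes of that list gave 3 lower and 2 higher in NejireKD than in Gcn5KD.

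The 3 dorsal patterning genes of the set, scw, tsg and zen2, were lower in NejireKD than in HDAC3KD. The BMP ligand gene scw stood at 14.5, 20.5 and 29.4 CPM in NejireKD, 15.3 and 23.6 CPM in Gcn5KD and 25.3, 14.5 and 18.6 CPM in HDAC1KD, against 58, 39.9 and 50.5 CPM in HDAC3KD. Thus scw was lower in NejireKD than in HDAC3KD (log2 fold change -1.21, SE 0.24, edgeR adjusted p = 2.6e-04), while its difference from Gcn5KD was 0.22 (95% interval -0.31 to 0.75, edgeR adjusted p = 0.49). The BMP-binding gene tsg was lower in NejireKD (19.9, 20.5 and 19.8 CPM) than in HDAC1KD (53.0, 52.5 and 50.7 CPM), with a log2 fold change of -1.25 (SE 0.14, edgeR adjusted p = 4.5e-07). Of the 14 other tested genes of this list, 11 were lower in NejireKD than in Gcn5KD, 14 than in HDAC1KD and 13 than in HDAC3KD, and 0 were higher.

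The proneural genes sc and ac, basic helix-loop-helix factors that make neural precursors, behaved differently under HDAC1KD. There sc stood at 37.9, 41.8 and 33.7 CPM, against 5.33, 8.30 and 6.84 CPM in NejireKD, 4.44 and 3.58 CPM in Gcn5KD and 8.16, 5.64 and 14 CPM in HDAC3KD. It was higher in HDAC1KD than in HDAC3KD by 1.78 on the log2 scale (SE 0.31, edgeR adjusted p = 2.4e-04) and lower in NejireKD than in HDAC1KD (log2 fold change -2.37, SE 0.32, edgeR adjusted p = 3.1e-06). Its neighbour ac stood at 19.3, 24.9 and 27.4 CPM in HDAC1KD, above all 7 controls, whose highest was 16.4 CPM.

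For ac the difference between HDAC1KD and HDAC3KD was 1.54 on the log2 scale (SE 0.28, edgeR adjusted p = 3.6e-04). These were the 2 of the 46 genes that were higher in HDAC1KD than in HDAC3KD. The SOX gene D, also on the neural list, was lower in NejireKD (209, 119 and 194 CPM) than in HDAC1KD (418, 320 and 329 CPM; log2 fold change -0.90, SE 0.18, edgeR adjusted p = 2.6e-04). The 10 other tested genes of that list gave 9, 10 and 10 lower and 0 higher in NejireKD against Gcn5KD, HDAC1KD and HDAC3KD.

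Besides sc, the X-linked sex determination signals included upd1, a ligand of the JAK/STAT pathway. It stood at 42.1, 23.3 and 31.6 CPM in NejireKD, against 56.2 and 61.9 CPM in Gcn5KD and 117, 118 and 118 CPM in HDAC3KD. The NejireKD libraries were the lowest, and the log2 fold change was -0.74 (SE 0.19, edgeR adjusted p = 0.0024) against Gcn5KD and -1.83 (SE 0.17, edgeR adjusted p = 8.4e-08) against HDAC3KD. The 5 other tested genes of that list were all lower in NejireKD than in Gcn5KD, HDAC1KD and HDAC3KD.

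Of the boundary genes, Elba1 stood at 336, 210 and 277 CPM in NejireKD and 407, 244 and 300 CPM in HDAC1KD, and these groups overlapped. In HDAC3KD it was at 734, 824 and 800 CPM, the level of the main controls. Elba3, another subunit of the complex, differed by 0.06 between NejireKD and HDAC1KD (95% interval -0.34 to 0.46, edgeR adjusted p = 0.81) and was lower in NejireKD than in HDAC3KD (log2 fold change -1.99, SE 0.21, edgeR adjusted p = 2.2e-07). Bro, a partner of the transcription factor Runt, was lower in NejireKD than in HDAC3KD (log2 fold change -1.31, SE 0.15, edgeR adjusted p = 7.5e-07). Of the 10 other tested genes on the list of boundary factors and early repressors, 6 were lower and 1 higher in NejireKD than in Gcn5KD, 7 and 2 than in HDAC1KD, and 8 and 0 than in HDAC3KD.

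In the batch 1 set few of the 46 genes were called, with 2 libraries per knockdown. They summed to 3337 CPM in EnokKD and 2765 CPM in HDAC6KD on average, against 2602 CPM in the batch 1 controls. The median log2 fold change of those tested was 0.40 in EnokKD and 0.06 in HDAC6KD, against -0.001 and -0.003 over all genes. fd19B and CG13716 did not pass the filter on low counts there, which left 44. Of these, 0 were lower and 3 higher in EnokKD than in the batch 1 controls by edgeR, where 2.61% of all genes were lower and 1.35% higher, and these controls are part of the selection. CG14017 was at 12.6 and 9.81 CPM in EnokKD against 3.24, 3.15, 2.61 and 3.08 CPM (log2 fold change 1.88, SE 0.25), and GluRIIA at 24.7 and 21.9 CPM against 9.89, 8.53, 7.60 and 6.16 CPM (log2 fold change 1.5, SE 0.23). The third was CG30161 (log2 fold change 1.02, SE 0.25), and for these 3 genes the groups did not overlap. Leaving out either EnokKD library leaves a single one, so how far these calls rest on 1 library could not be tested. The value of bcd in EnokKD was 24.6 to 31.8 CPM.

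In HDAC6KD, 0 of 44 were lower and 0 higher by edgeR, where 0.588% and 0.833% of all genes were. DESeq2 called 0. By edgeR, 8 of the 44 had an unadjusted p under 0.05. That count is not set beside all genes, so it cannot be read as a result about the set. The 2 libraries differed widely, with 3641 and 1888 CPM summed over the 46 genes. nullo, for instance, stood at 5.89 CPM in replicate 1 and 1.02 CPM in replicate 2, the library with the conflicting stage label. Leaving out either replicate leaves a single HDAC6KD library, so calls from those fits are not given.

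The 46 genes of the Nejire rescues gave sums of 5547 ± 200 CPM (SD, n = 3) for the wild-type and 4794 ± 137 CPM (SD, n = 3) for the catalytically dead protein. The median gene of the 46 had 25.2 and 25.9 CPM there, against 58.8 CPM in the main controls and 19.9 CPM in NejireKD. Of the 46, 0 were lower and 3 higher with wild-type than with dead Nejire by edgeR, where 0.0983% and 0.16% of all genes were. CG15876 stood at 241, 267 and 263 CPM with wild-type and 205, 187 and 193 CPM with dead Nejire (log2 fold change 0.43, SE 0.07, edgeR adjusted p = 0.025). Notum stood at 99.8, 109 and 95.1 CPM against 65.4, 79.5 and 65.9 CPM (log2 fold change 0.56, SE 0.09, edgeR adjusted p = 0.029).

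D stood at 642, 622 and 599 CPM with wild-type against 519, 513 and 474 CPM with dead Nejire (log2 fold change 0.34, SE 0.05, edgeR adjusted p = 0.029). In these 3 genes the groups did not overlap, and the fold changes are well under those between knockdown and control. Leaving out 1 library gave 0 to 6 calls: 1 without wild-type replicate 1, 0 without wild-type replicate 2 or 3 or dead replicate 3, 5 without dead replicate 1 and 6 without dead replicate 2. The shares of all genes in these fits are not given here. The zygotic genes outside the set gave 0 calls in this comparison.

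The Gcn5 rescues gave sums of 5488 ± 364 CPM (SD, n = 3) with wild-type and 5331 ± 670 CPM (SD, n = 3) with catalytically dead Gcn5. Of the 46 genes, 0 were lower and 0 higher by edgeR, where 0% and 0% of all 8140 genes were. DESeq2 called 0 of the 46, and 0 had an unadjusted p under 0.05. For nullo, at 182, 126 and 116 CPM with wild-type and 180, 169 and 92.3 CPM with dead Gcn5, the log2 difference was -0.05 (95% interval -0.61 to 0.52).

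The rescues were also set beside all 7 stage 5 controls. With wild-type Nejire 10 lay above and 6 below all 7, where 17.1% and 34.9% of all genes did, and with dead Nejire 7 lay above and 6 below, where 16.7% and 31.4% did. With wild-type Gcn5 10 lay above and 2 below, where 13.6% and 23.3% did, and with dead Gcn5 8 lay above and 2 below, where 12.5% and 20% did. In each of the 4 rescue groups nullo, bnk, CG15382 and upd1 lay above all controls, and CG43725 and CG34266 below. With wild-type Nejire, bnk reached 782, 832 and 788 CPM and nullo 193, 210 and 173 CPM. The rescue libraries had bcd at 135 to 305 CPM, above all 7 controls, and come from other sets and lines. In the Nejire rescues nej stood at 2696 to 3178 CPM, against 678 to 1524 CPM in the main controls. In the Gcn5 rescues Gcn5 stood at 5865 to 7940 CPM, against 211 to 252 CPM. The rescued gene was thus above control level, with wild-type and dead protein alike.

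In nuclear RNA, NejireKD was compared with controls named wild type, in libraries that took no part in the selection. Scaled to the ERCC transcripts added during extraction, 22 of the 46 genes were lower and 3 higher in NejireKD nuclei by edgeR, where 10.4% of all genes were lower and 2.27% higher. The median log2 fold change was -2.39, against -0.33 over all genes. The spike-in counts spread widely, at 98.5, 100.0 and 134 per M fly counts in the controls and 282, 284 and 69.5 in NejireKD, and without NejireKD replicate 3 the counts were 40 lower and 3 higher, where 73.3% and 5.34% of all genes were and the median of all genes moved by -0.94. Without control replicate 1 they were 12 and 1, where 5.03% and 1.1% of all genes were, and without control replicate 2 they were 11 and 2, where 5.08% and 1.27% were. Scaled by TMM on fly genes, which moved the median of all genes by 0.29, 36 of the 45 tested were lower and 5 higher, where 30.7% and 29.8% of all genes were.

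CG43725 fell from 39.4, 43.8 and 33.9 CPM in control nuclei to 0.297, 0.389 and 0.629 CPM (log2 fold change -6.78, SE 1.00, edgeR adjusted p = 1.4e-08). The NejireKD values are 6, 6 and 13 reads. Notum fell from 91.8, 130 and 100 CPM to 1.39, 2.40 and 2.56 CPM (log2 fold change -5.94, SE 0.96, edgeR adjusted p = 2.4e-07). The falls of both were larger in size than in total RNA, where they were -3.15 and -3.42. Besides the fraction, scaling (ERCC against TMM) and controls (named wild type against Ctrl-KD) differ, and the difference was not tested. scw, zen2, Neu2, Elba3, Elba1, halo, upd1, tsg, sc and Bro were also lower in NejireKD nuclei.

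GluRIIA rose from 2.07, 2.30 and 1.65 CPM to 40.5, 47.9 and 24.6 CPM (log2 fold change 3.56, SE 0.86, edgeR adjusted p = 7.3e-04). CG14017 rose from 1.21, 1.15 and 1.32 CPM to 15.4, 17.9 and 9.39 CPM (log2 fold change 2.90, SE 0.91, edgeR adjusted p = 0.016), and fd19B from 1.5, 4.26 and 0.988 CPM to 29.8, 24.3 and 19.9 CPM (log2 fold change 2.88, SE 0.85, edgeR adjusted p = 0.0087). These are the 3 genes that were higher in total RNA of NejireKD embryos, from other libraries. nullo was at 19.3, 44.0 and 15.4 CPM in control nuclei and 52.4, 56.6 and 59.4 CPM in NejireKD nuclei (log2 fold change 0.72, 95% interval -0.78 to 2.22, edgeR adjusted p = 0.72), and its groups were apart in CPM but overlapped on the spike-in scale.

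The nuclear groups also differed in maternal RNA, with bcd at 40.1 to 95.9 CPM in control and 292 to 379 CPM in NejireKD nuclei. The 9 listed maternal genes summed to 1292 to 1970 CPM and 5531 to 6480 CPM, and their part in the result was not tested. Scaled by TMM (trimmed mean of M values) on fly genes instead, the counts and the shares over all genes were those given above. That scaling raised the median of all genes by 0.29 on the log2 scale. The zygotic genes outside the set fell too, with 100 of 150 and 231 of 298 lower and 0 higher on the spike-in scale.

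**Figure D5:**
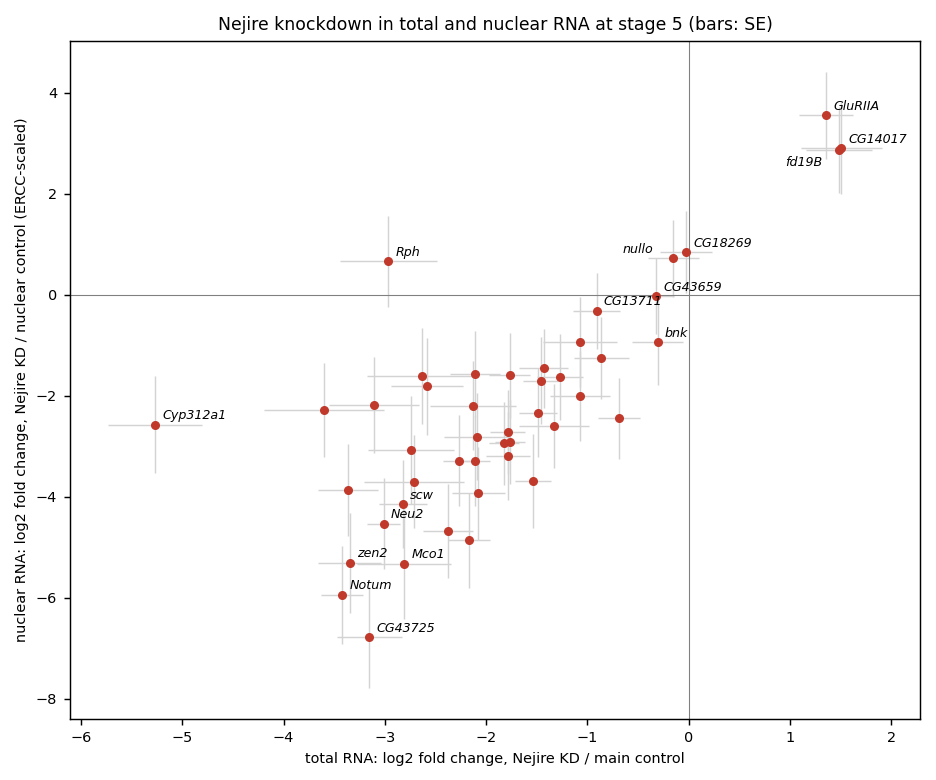
log2 fold change of NejireKD over control in total RNA (x axis, main controls) and nuclear RNA (y axis, ERCC-scaled) for each of the 46 genes, with standard errors as grey bars. GluRIIA, CG14017 and fd19B stand alone at upper right, nullo and CG18269 lie near 0 on the x axis and within 1 above 0 on the y axis, and most other genes lie below 0 on both.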

How the data were processed

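Total and nuclear RNA counts per gene were deposited by the authors as whole numbers for 62 libraries in 22 groups; per the submitters' processing notes, bcl2fastq 2.20.0.422 was among the tools, and the genome build was dm6. For the aligner and counter, the name is not given in the sources used here. CPM was computed from library totals (nuclear: fly genes only). Genes kept by filterByExpr (10 counts, 15 in total) were tested in R 4.3.3 with edgeR 4.0.16's quasi-likelihood F test on TMM-scaled counts, nuclear RNA on sums of 92 ERCC transcripts, Benjamini-Hochberg adjusted over all genes at 0.05. The groups of the main set, and those of batch 1, were fitted together. Standard errors are the log2 fold change over the root of F, and 95% intervals are normal ones built from them. DESeq2 1.42.0, other scalings, no filter, other controls, a replicate block and leaving out each library were alternatives. Replicates are separate pools of embryos. In counts simulated from these means, the test recovered 89% of 1-unit log2 changes for NejireKD against control (8236 genes) and 0% of 2-unit changes in nuclear RNA (9029 genes). The members and gene lists were chosen with earlier results of these data known. Named genes are the 10 highest ratios, the 10 highest control levels, genes on a list, those nearest the limit and up to 6 falls and 6 rises per comparison; others named were chosen after their values were seen. Sequences were not used here.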

Additional observations from a re-analysis of the deposited data

Results flagged for a closer look

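Elba1 stood at 627 CPM in replicate 3 of the batch 1 stage 5 controls, against 340 to 388 CPM in the other 3 libraries of that group, a gap above Dixon's 95% critical value for 4 samples. It was the 1 gene of 46 tested for which a library stood apart in this way, and chance flags about 1 in 20 groups. Summed over the 46 genes, the same library, 1 of the 2 whose names read CtrlAc-KD, had 3887 CPM against 1977 to 2515 CPM in the other 3.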

How the results depend on the processing

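Of the recomputed counts that answer a comparison, 144 stayed within 1.5 times of the count given, 13 were smaller, 15 larger and 1, the number of genes chosen, moved. The choice of controls moved several counts. With the batch 1 controls, 13 genes were called in Gcn5KD, 18 in HDAC1KD and 34 in HDAC3KD, and the log2 fold changes turned positive in Gcn5KD for fd19B (0.064) and CG13716 (0.80) and in HDAC3KD for fd19B (2.55), nullo (2.76), CG18269 (1.18) and scw (0.90). With the main controls, 26 genes were called in EnokKD, where 13.2% of all genes were lower and 9.49% higher, and CG30161 turned to -0.54. In HDAC6KD 31 were called, a count not set beside all genes here. Without the filter on low counts, EnokKD had 15 calls, where 4.36% of all genes were lower and 2.6% higher. Fitted with its controls alone, EnokKD had 6, where 5.93% and 3.5% of all genes were. Without the filter HDAC6KD had 7 calls and the Nejire rescues 12, and DESeq2 called 6 in the Nejire rescues. Those counts are also not set beside all genes, so they cannot be read as a result about the set. The nuclear comparison gave 41 calls with TMM, where the shares of all genes are given above. With library totals it gave 41, a count not set beside all genes here. Leaving out 1 library gave 1 to 4 calls in EnokKD, 0 to 5 in HDAC6KD (single libraries left in an arm borrow the spread of the other groups), 0 to 6 in the Nejire rescues and 13 to 43 in nuclear RNA. A ratio of at least 2 would choose 27 genes. The replicate numbers were not shown to pair samples, since same-numbered deviations correlated at -0.20 to 0.19 in 26 pairs of the main set, -0.19 to 0.03 in batch 1, -0.20 to -0.02 in the Nejire rescues, -0.67 to 0.48 in the Gcn5 rescues and -0.11 to 0.30 in nuclear RNA, the last 2 with 2 of 3 pairs over 0.1. With a replicate block, the calls were 42 in NejireKD, 34 in Gcn5KD, 42 in HDAC1KD and 17 in HDAC3KD. Of all genes, 20.9% were lower and 14.8% higher in NejireKD and 23.5% and 25.7% in Gcn5KD. The shares were 27.3% and 26.8% in HDAC1KD and 19.1% and 13.3% in HDAC3KD. NejireKD against Gcn5KD had 24 calls, where 34.3% and 27.5% of all genes were lower and higher. Against HDAC1KD it had 33 (35% and 32.4% of all genes) and against HDAC3KD 41 (28.5% and 28.5%). HDAC1KD against HDAC3KD had 34 (18.5% and 19.6%), and EnokKD had 0 (0.466% and 0.11%). HDAC6KD and both rescues had 0 and nuclear RNA had 14, not set beside all genes here. The cause of these changes was not tested.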
